A study of Homo sapiens with 14 samples.

Results

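Mediator is a large protein complex that connects transcription factors bound at enhancers with RNA polymerase II at promoters. Messenger RNA of 33 of its subunits was examined, chosen by gene name from the 62703 rows of the count table. They comprised the 7 genes of the kinase module (CDK8, CDK19, CCNC, MED12, MED12L, MED13 and MED13L) and 26 core subunits. The core subunits were assigned to the head (7 genes), the middle (9 genes), the tail (9 genes) and the scaffold MED14. The placement of some subunits, such as MED27 to MED30, differs between published structures, so these groups are a convention.

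The study treated 3 human prostate cancer cell lines for 3 days with SEL120-34A at 1.5 µM, an inhibitor of the kinases CDK8 and CDK19, or with the solvent DMSO. LNCaP, which responds to the antiandrogen enzalutamide, and 22Rv1, which resists it, had 3 libraries in each arm. PC3, which grows without androgen, had 1 library in each arm and therefore entered no test. Sequencing was of transcript 3′ ends by BRB-seq, a method that barcodes each sample before pooling.

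In the kinase module, CDK8 or its paralog CDK19 is the catalytic subunit, cyclin C (CCNC) is its partner and MED12 activates the pair. MED13 attaches the module to the core, where it hinders the binding of RNA polymerase II. MED12L and MED13L are the paralogs of MED12 and MED13, and CDK8 and CDK19 are thought to be used as alternatives in a given complex. The core binds the polymerase through its head and middle and many transcription factors through its tail. Because SEL120-34A blocks the activity of both kinases and not their synthesis, the mRNA of its targets does not measure whether the drug worked.

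Total counts ranged from 246063 to 909176 per library, and all 3 SEL120-34A libraries of 22Rv1 were shallower than their controls. The 33 genes together held 225 to 755 counts in the 12 LNCaP and 22Rv1 libraries, and 1076 and 667 counts in PC3. This was 0.0839% to 0.118% of a library. Thus 22 of the 33 genes passed the filter on low counts and were tested, of which 4 of 7 belonged to the kinase module and 18 of 26 to the core. Below the filter were CDK8, MED12, MED12L, MED6, MED17, MED18, MED4, MED7, MED26, MED31 and MED23. KLK3, the gene of prostate-specific antigen, was at 1218 ± 167 CPM (counts scaled to library size, SD, n = 3) in LNCaP DMSO and at 20.4 ± 9.97 in 22Rv1 DMSO. In PC3 it had 7 counts in the DMSO library and 6 in the SEL120-34A library. Keratin 8, keratin 18 and EPCAM were detected in all groups, the leukocyte genes PTPRC, CD74 and TYROBP had 0 counts in every library, and endothelial genes did not exceed 4 counts.

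The levels of the kinase module were described first. CPM relate the tags of a gene to all tags of its library, scaled with normalization factors. Since the tags come from transcript ends, CPM do not grow with transcript length, but the efficiency of capture was not measured for each gene, so levels were compared between libraries rather than between genes. All values are relative to the library, and an altered amount of RNA per cell would not be seen.

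**Figure D1:**
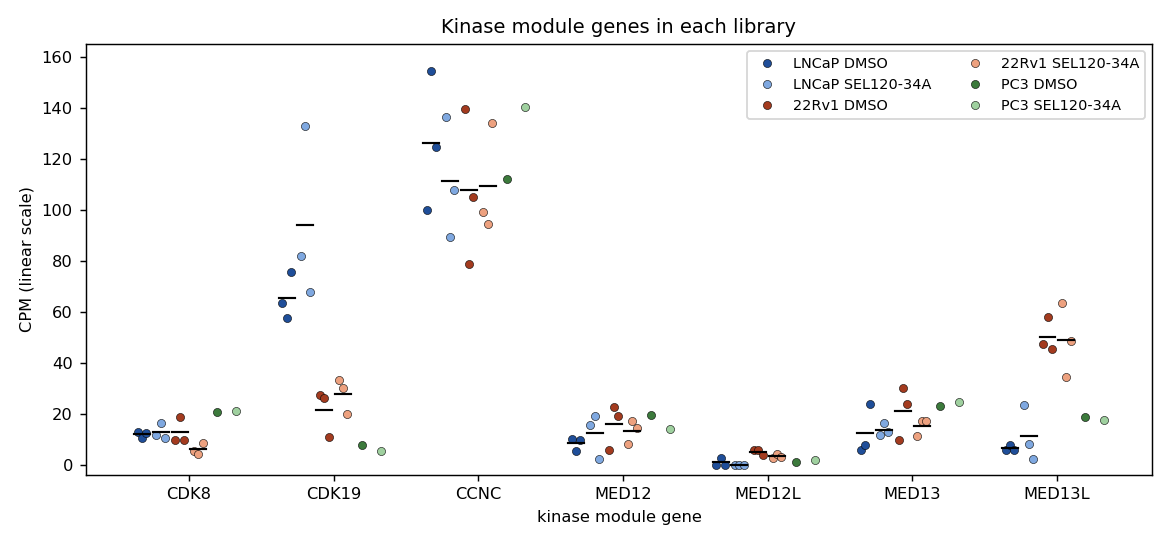
CPM (linear axis) of the 7 kinase module genes in each of the 14 libraries, with points for libraries and a line for the mean of each group of 3. CDK19 was higher in all 6 LNCaP libraries than in any 22Rv1 or PC3 library, MED13L was higher in all 6 22Rv1 libraries than in any other, and MED12L stayed under 6 CPM throughout.

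CDK19 (ENSG00000155111.15, chromosome 6, 110609978 to 110815958, minus strand, GRCh38) showed the clearest difference between the lines among the kinases. It was at 63.4, 57.6 and 75.5 CPM in the LNCaP DMSO libraries and at 81.9, 133 and 67.6 CPM in the LNCaP SEL120-34A libraries. In 22Rv1 it was at 27.5, 26.2 and 10.7 CPM with DMSO and at 33.1, 30.0 and 19.97 CPM with SEL120-34A. The lowest LNCaP library therefore lay above the highest 22Rv1 library, whatever the treatment. The share of all genes that separate these lines in this way was not computed. PC3 had the lowest level, with 7 counts (7.62 CPM) in the DMSO and 3 counts (5.26 CPM) in the SEL120-34A library. CDK19 was higher in LNCaP than in 22Rv1 by 1.73 ± 0.30 on the log2 scale (SE) with DMSO (adjusted p = 9.74e-06, edgeR) and by 1.78 ± 0.34 with SEL120-34A (adjusted p = 4.37e-05, edgeR).

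CDK8 (ENSG00000132964.13, chromosome 13, 26254104 to 26420982, plus strand) was measured with few tags and was not tested. Its libraries held 9, 4 and 9 counts in LNCaP DMSO, 3, 6 and 5 counts in LNCaP SEL120-34A, 5, 10 and 8 counts in 22Rv1 DMSO and 2, 1 and 3 counts in 22Rv1 SEL120-34A. The LNCaP arms overlapped, at 11.9 ± 1.25 and 12.8 ± 3.02 CPM (SD, n = 3). In 22Rv1 the treated libraries lay below the controls, at 6.12 ± 2.20 against 12.7 ± 5.22 CPM. None of these treated libraries held more than 3 counts, the number taken as the floor, which is 8.27 to 12.9 CPM in them. Of all tested genes, 10.5% were lower without overlap in 22Rv1. With counts pooled in each arm and scaled by library totals, SEL120-34A over DMSO gave a ratio of 0.476 in 22Rv1 with an exact 95% interval from 0.159 to 1.203 (6 against 23 counts) and of 1.00 in LNCaP with an interval from 0.475 to 2.05. Both intervals cover counting error only and include a ratio of 1. PC3 held 19 and 12 counts, at 20.7 and 21.0 CPM, and so had more CDK8 tags than CDK19 tags in both libraries.

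The share of CDK19 among the summed CDK8 and CDK19 counts summarised this pattern. In LNCaP it was 84.6% with DMSO (exact 95% interval 77.6 to 90.1%) and 87.9% with SEL120-34A (80.6 to 93.2%). In 22Rv1 it was 61.7% (48.2 to 73.9%) with DMSO and 81.2% (63.6 to 92.8%) with SEL120-34A. The 22Rv1 intervals overlapped, and the second rested on 32 counts in 3 libraries. In PC3 the share was 26.9% (11.6 to 47.8%) and 20% (4.33 to 48.1%). The PC3 intervals lay below those of LNCaP in each arm. A share compares these libraries and does not give the proportion of complexes that carry either kinase.

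**Figure D2:**
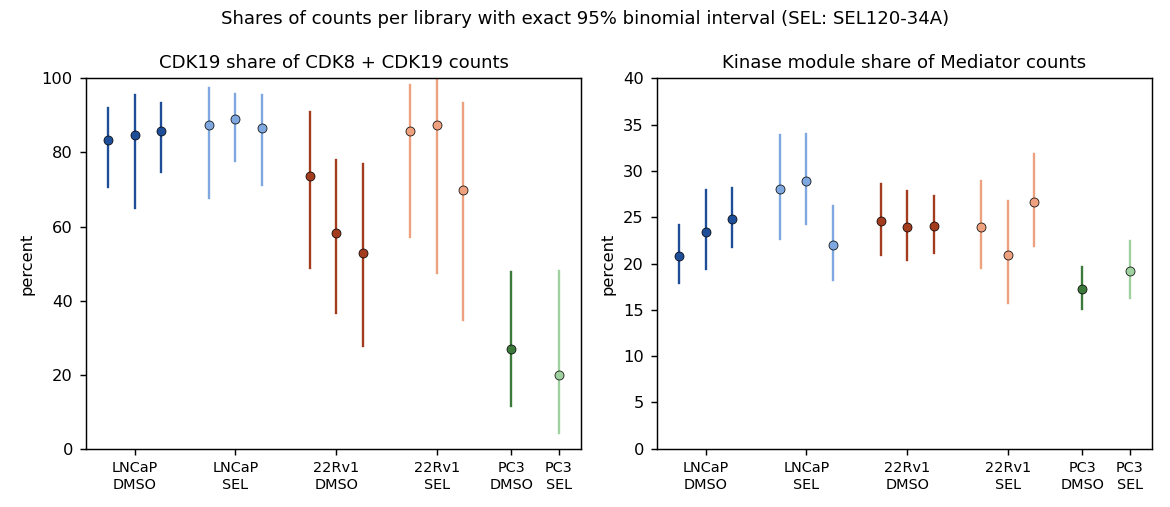
Percent of CDK8 and CDK19 counts that were CDK19 (left) and percent of all Mediator counts that fell on the kinase module (right), 1 point per library with its exact 95% binomial interval. The CDK19 share was between 83.3 and 89.1% in the 6 LNCaP libraries, between 52.9 and 87.5% in 22Rv1 and at most 26.9% in PC3, while the kinase module share stayed between 17.3 and 29.0% in all 14 libraries.

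The 250 bases before the RefSeq transcription start of CDK8, CDK19 and MED13L are shown because CDK8 and CDK19 are the drug's targets and because CDK19 and MED13L had the largest differences between the lines among the tested members. The sequences are those of RefSeq on GRCh38.p14, written 5′ to 3′ on the strand of the gene. CDK8 lies at chr13:26253879-26254128 (plus strand), CDK19 at chr6:110815856-110816105 (minus strand, the outermost of 3 listed starts) and MED13L at chr12:116277694-116277943 (minus strand). The gene spans printed in this report are from GENCODE, which starts CDK8 at 26254104 and CDK19 at 110815958. The 3′ ends of these windows therefore lie inside the GENCODE genes. For CDK19 that part holds the last CCAAT and the GGGCGG. The MED13L window lies outside its GENCODE gene. Capitals mark matches on either strand to the E-box CACGTG, the NF-Y element CCAAT, the GC box sequence GGGCGG or the TATA-box sequence TATAAA.
CDK8: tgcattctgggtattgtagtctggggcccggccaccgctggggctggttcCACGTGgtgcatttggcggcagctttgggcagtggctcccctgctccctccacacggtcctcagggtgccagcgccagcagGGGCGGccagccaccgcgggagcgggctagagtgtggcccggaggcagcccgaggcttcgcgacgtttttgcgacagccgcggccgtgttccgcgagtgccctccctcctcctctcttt
CDK19: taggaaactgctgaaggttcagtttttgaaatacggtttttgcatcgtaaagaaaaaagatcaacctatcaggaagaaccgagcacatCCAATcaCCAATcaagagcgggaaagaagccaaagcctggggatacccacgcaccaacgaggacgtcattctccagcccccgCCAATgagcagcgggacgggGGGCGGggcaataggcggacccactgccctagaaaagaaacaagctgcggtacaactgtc
MED13L: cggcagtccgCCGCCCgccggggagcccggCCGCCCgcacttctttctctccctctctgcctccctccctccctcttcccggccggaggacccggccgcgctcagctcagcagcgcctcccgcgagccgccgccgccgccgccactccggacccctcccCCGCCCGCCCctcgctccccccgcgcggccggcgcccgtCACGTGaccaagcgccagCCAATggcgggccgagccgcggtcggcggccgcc
The CDK8 window held 1 CACGTG and 1 GGGCGG, the CDK19 window 3 CCAAT and 1 GGGCGG, and the MED13L window 1 CACGTG, 1 CCAAT and 4 GGGCGG, of which neighbouring matches may overlap. TATAAA was in none of them. Over all 35116 windows of this length, 6.34% held CACGTG, 32.0% CCAAT, 42.6% GGGCGG and 10.7% TATAAA. Of 30 windows of 25 Mediator genes, 2 held CACGTG, 11 CCAAT, 17 GGGCGG and 2 TATAAA. GC content was 68.8% for CDK8, 52.0% for CDK19 and 81.2% for MED13L. No measurement of promoter activity entered these data, so a match describes the sequence only.

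MED13L (ENSG00000123066.9, chromosome 12, 115957905 to 116277693, minus strand), whose product can replace MED13 as the link to the core, ran opposite to CDK19. It was at 47.1, 58.0 and 45.3 CPM in 22Rv1 DMSO and at 63.4, 34.3 and 48.5 CPM in 22Rv1 SEL120-34A. In LNCaP it was at 5.63, 7.85 and 5.59 CPM with DMSO and at 23.4, 8.13 and 2.11 CPM with SEL120-34A. All LNCaP libraries lay below all 22Rv1 libraries, although the LNCaP values rest on 1 to 6 counts each. As for CDK19, the share of all genes with such separation was not computed. PC3 was in between, at 18.5 and 17.5 CPM. The log2 fold change of LNCaP over 22Rv1 was -2.97 ± 0.41 with DMSO (adjusted p = 9.71e-08, edgeR) and -2.40 ± 0.47 with SEL120-34A (adjusted p = 6.91e-05, edgeR). The second value moved to -3.32 without LNCaP SEL120-34A replicate 1 and to -1.73 without replicate 3, and stayed past the threshold in both fits (adjusted p = 8.44e-06 and 0.00368, edgeR).

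MED13 had the sign of MED13L with DMSO but missed the threshold. It was at 12.4 ± 9.89 CPM in LNCaP DMSO and 21.2 ± 10.3 CPM in 22Rv1 DMSO, a difference of -0.70 ± 0.44 on the log2 scale (adjusted p = 0.186, edgeR). The LNCaP DMSO libraries held 4, 3 and 17 counts and those of 22Rv1 DMSO 5, 16 and 20. Without LNCaP DMSO replicate 3, which held the 17 counts, the difference was -1.70 and passed (adjusted p = 0.0178, edgeR). With SEL120-34A it was -0.10 ± 0.61 (adjusted p = 0.916, edgeR). Of the summed MED13 and MED13L counts, MED13L held 31.4% in LNCaP DMSO (exact 95% interval 16.9 to 49.3%), 69.4% in 22Rv1 DMSO (60.9 to 77.1%) and 44.7% in PC3 DMSO (28.6 to 61.7%). The LNCaP and 22Rv1 intervals did not overlap, but this rested on LNCaP DMSO replicate 3. Its share was 19.0%, against 50% in each of the other LNCaP DMSO libraries, and without it the LNCaP share was 50% (7 of 14 counts, 23.0 to 77.0%), an interval that includes the 22Rv1 share. With SEL120-34A the shares were 40% (21.1 to 61.3%) in LNCaP, 77.4% (65.0 to 87.1%) in 22Rv1 and 41.7% (22.1 to 63.4%) in PC3. The LNCaP libraries were at 66.7%, 33.3% and 14.3%, and without replicate 1 the share was 25% (4 of 16 counts, 7.27 to 52.4%).

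CCNC (ENSG00000112237.13, chromosome 6, 99542387 to 99568825, minus strand), which encodes the cyclin shared by both kinases, varied little. Its means were 126 ± 27.3 CPM in LNCaP DMSO, 111 ± 23.7 in LNCaP SEL120-34A, 108 ± 30.5 in 22Rv1 DMSO and 109 ± 21.6 in 22Rv1 SEL120-34A (SD, n = 3). These ranges overlapped, as did those of PC3, at 112 and 140 CPM. The difference between lines was 0.20 on the log2 scale with DMSO (95% interval -0.19 to 0.60) and 0.0009 with SEL120-34A (-0.49 to 0.49). Both intervals lie within a 2-fold change.

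MED12 and MED12L, the subunit that activates the kinase and its paralog, were both under the filter. MED12 held 2 to 7 counts in the LNCaP controls and 1 to 7 in their treated libraries. In 22Rv1 the controls held 3 to 16 counts and the treated libraries 3 to 5. Pooled LNCaP over 22Rv1 counts gave a ratio of 0.469 with DMSO (exact 95% interval 0.240 to 0.884) and 0.785 with SEL120-34A (0.323 to 1.91), from counting error alone. The libraries of the lines overlapped, since 22Rv1 DMSO replicate 1 was at 5.89 CPM and the LNCaP controls at 5.24 to 9.86 CPM. MED12L had 3 counts in each 22Rv1 DMSO library and 1 count in each 22Rv1 SEL120-34A library. In LNCaP it had 1 count in all 6 libraries together, and in PC3 1 count in each library. With DMSO the pooled ratio of LNCaP over 22Rv1 was 0.101 (0.0023 to 0.729). The fit without the filter, which takes the spread between libraries into account, called neither gene between the lines with DMSO (adjusted p = 0.207 for MED12 and 0.1004 for MED12L, edgeR). A count of 0 allows up to 4.19 to 11.7 CPM in the LNCaP libraries, taking 3 counts as the floor, so MED12L was near or under the limit of detection everywhere.

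The kinase module as a whole was compared with the core by summing CPM. The kinase genes summed to 232 ± 30.0 CPM in LNCaP DMSO, 255 ± 45.4 in LNCaP SEL120-34A, 234 ± 15.0 in 22Rv1 DMSO and 223 ± 21.8 in 22Rv1 SEL120-34A (SD, n = 3). Of these means CCNC alone held 126, 111, 108 and 109 CPM in the same order. The kinase sums and the kinase module shares below therefore depend most on CCNC. The core summed to 771 ± 29.2, 710 ± 16.5, 732 ± 42.1 and 716 ± 44.5 CPM in the same order. The kinase sums of the arms overlapped in both lines, and so did the core sums in 22Rv1, while in LNCaP the treated core sums (691 to 721 CPM) lay below the controls (748 to 804 CPM). That gap came with 13 of 18 tested core estimates below 0, beside 3507 of 7086 for all genes tested, and none past the threshold. How often sums over other sets of genes separate the arms was not computed. With library totals in place of the scaling factors, the core sums of LNCaP were 724 CPM with DMSO and 639 CPM with SEL120-34A. The PC3 libraries had the highest core sums, at 969 and 945 CPM, and kinase sums of 203 and 224 CPM.

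Of all Mediator counts in LNCaP, the kinase module held 23.1% with DMSO (exact 95% interval 21.1 to 25.1%) and 25.9% with SEL120-34A (23.2 to 28.6%). In 22Rv1 it held 24.2% with DMSO (22.2 to 26.3%) and 24.2% with SEL120-34A (21.4 to 27.1%). These 4 intervals overlapped. In PC3 the share was 17.3% (15.1 to 19.7%) with DMSO and 19.2% (16.3 to 22.4%) with SEL120-34A. The sum hides opposite differences between LNCaP and 22Rv1, with CDK19 higher and MED13L lower in LNCaP.

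To examine whether inhibition of the kinases changed the mRNA of their own complex, SEL120-34A was compared with DMSO in each line. No Mediator gene passed the threshold (adjusted p under 0.05 over all 7086 genes tested, edgeR) in LNCaP, where 2.77% of all tested genes did, nor in 22Rv1, where 5.7% did. DESeq2 and limma also called 0 of the members in either line, and edgeR without the filter called 0 of all 33. With all libraries thinned to 246063 counts, the total of the shallowest, 0 of the 15 members still tested were called. At an unadjusted p under 0.05 there were 3 of 22 members in LNCaP (CDK19, MED1 and MED30) and 1 in 22Rv1 (MED28), beside 13.5% and 19.1% of all genes. The difference between the effects of the lines was past the threshold for 0 of 22 members, beside 0.734% of all genes, and had an unadjusted p under 0.05 for 1 (MED1), beside 11.4%. The median log2 fold change of the tested members was -0.10 in LNCaP and -0.02 in 22Rv1, beside 0.00 for all genes in each line. For the 4 kinase genes the medians were 0.30 and 0.04, and for the 18 core genes -0.12 and -0.10.

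The width of the intervals limited what could be seen. The median half-width of the 95% intervals was 0.67 on the log2 scale in both lines, a factor of 1.59. In LNCaP 10 of the 22 intervals lay wholly within a 2-fold change in either direction, and in 22Rv1 14 did. The others reached past 2-fold, 12 in LNCaP and 8 in 22Rv1. In LNCaP the estimates of MED1 (1.26) and MED30 (-1.10) were themselves past 2-fold and missed the adjusted threshold. Changes of 2-fold or more could therefore be missed as well as smaller ones, and the result does not show that the members stayed the same.

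**Figure D3:**
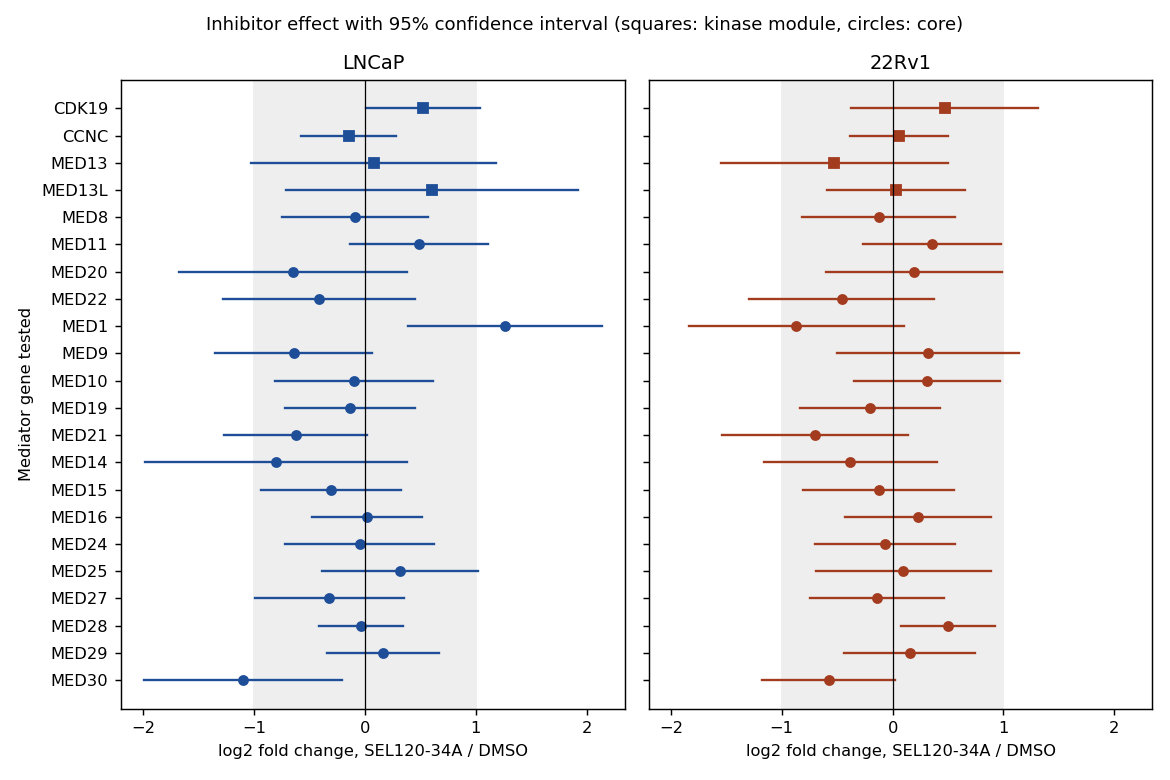
Log2 fold change of SEL120-34A over DMSO with its 95% confidence interval for the 22 tested Mediator genes in LNCaP (left) and 22Rv1 (right), with squares for the kinase module, circles for the core and grey shading from -1 to 1. In LNCaP the intervals of CDK19, MED1 and MED30 exclude 0 before adjustment, in 22Rv1 that of MED28 does, and no gene passed the adjusted threshold.

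Among the kinase genes, CDK19 had log2 fold changes of 0.52 ± 0.26 in LNCaP (SE, adjusted p = 0.361, edgeR) and 0.47 ± 0.42 in 22Rv1 (adjusted p = 0.599, edgeR), and its arms overlapped in both lines. CCNC had -0.15 ± 0.21 and 0.06 ± 0.22. The 95% intervals of CCNC, -0.57 to 0.28 in LNCaP and -0.39 to 0.50 in 22Rv1, were among the narrowest. MED13 had 0.08 ± 0.55 and -0.53 ± 0.51, and MED13L 0.60 ± 0.65 and 0.03 ± 0.31. None of these 4 genes separated treated from control libraries in either line.

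In the middle of the core, MED1 (ENSG00000125686.12, chromosome 17, 39404285 to 39451272, minus strand) had the largest estimates. MED1 is the subunit through which nuclear receptors contact Mediator. In LNCaP it was at 9.86, 13.1 and 11.2 CPM with DMSO (7, 5 and 8 counts) and at 27.3, 27.1 and 25.3 CPM with SEL120-34A (7, 10 and 12 counts). In 22Rv1 it was at 21.6, 29.9 and 15.5 CPM with DMSO (11, 16 and 13 counts) and at 13.8, 4.29 and 14.3 CPM with SEL120-34A (5, 1 and 5 counts). Treated libraries were thus all above the controls in LNCaP and all below them in 22Rv1. The log2 fold changes were 1.26 ± 0.43 in LNCaP (adjusted p = 0.126, edgeR) and -0.87 ± 0.48 in 22Rv1 (adjusted p = 0.336, edgeR). Among all tested genes, 1.31% showed such separation in opposite directions. The difference between these effects, 2.13 ± 0.64, was tested as an interaction and did not pass (adjusted p = 0.135, edgeR, with 0.097 to 0.299 over 17 alternatives that tested it). In PC3 MED1 had 16 and 10 counts, at 17.4 and 17.5 CPM.

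The other middle subunits were closer to 0 or had wide intervals. MED9, MED21, MED10 and MED19 had estimates of -0.64, -0.63, -0.10 and -0.13 in LNCaP and of 0.32, -0.70, 0.31 and -0.20 in 22Rv1. MED9 and MED21 in LNCaP had no overlap between arms, at 22.6 ± 4.01 against 35.7 ± 6.87 CPM for MED9 and 32.3 ± 6.83 against 48.9 ± 3.67 CPM for MED21, with adjusted p of 0.435 and 0.387 (edgeR). MED26, which recruits elongation factors, and MED4, MED7 and MED31 were not tested. In LNCaP 1 member in all was higher without overlap, MED1, and 4 were lower, MED9, MED21, MED15 and MED30, beside 8.76% and 10.7% of all genes. In 22Rv1 2 of the tested members were higher without overlap, MED11 and MED28, and 2 were lower, MED1 and MED30, beside 12.4% and 10.5%. These counts of 22 do not set the members apart from other genes.

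In the tail, which many activators bind, MED30 (ENSG00000164758.7) was lower without overlap in both lines and missed the threshold in each. Of all tested genes, 10.7% were lower without overlap in LNCaP and 10.5% in 22Rv1. The share that was lower in both lines was not computed. It was at 22.5, 34.0 and 25.2 CPM in LNCaP DMSO and at 7.80, 21.7 and 6.34 CPM in LNCaP SEL120-34A (2, 8 and 3 counts). In 22Rv1 it was at 62.8, 69.3 and 54.9 CPM with DMSO and at 46.9, 21.5 and 48.5 CPM with SEL120-34A. The log2 fold changes were -1.10 ± 0.44 in LNCaP (adjusted p = 0.223, edgeR) and -0.58 ± 0.30 in 22Rv1 (adjusted p = 0.287, edgeR). The 2 PC3 libraries were at 123 and 102 CPM, a log2 ratio of -0.32 with a counting interval from -0.80 to 0.15.

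MED28 (ENSG00000118579.13) had the narrowest interval of the tail. In 22Rv1 it was at 70.7, 71.1 and 65.6 CPM with DMSO and at 102, 107 and 82.7 CPM with SEL120-34A, a log2 fold change of 0.50 ± 0.21 (adjusted p = 0.165, edgeR). In LNCaP, at 110 ± 5.11 and 107 ± 11.1 CPM, the log2 fold change was -0.03 with a 95% interval from -0.41 to 0.35. The difference between the effects was -0.53 ± 0.28 (adjusted p = 0.473, edgeR). The other tested tail genes, MED15, MED16, MED24, MED25, MED27 and MED29, had estimates from -0.32 to 0.32 in LNCaP and from -0.14 to 0.23 in 22Rv1. MED15 is known to serve sterol-regulatory factors, MED25 is a target of viral and cellular activators, and none of the 6 passed.

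In the head, which holds the polymerase, MED8, MED11, MED20 and MED22 were tested. Their log2 fold changes were -0.09, 0.48, -0.65 and -0.41 in LNCaP and -0.13, 0.36, 0.19 and -0.46 in 22Rv1. The smallest adjusted p among them was 0.517 (edgeR), for MED11 in LNCaP. The scaffold gene MED14, whose product runs through the whole complex, had -0.80 ± 0.58 in LNCaP and -0.38 ± 0.38 in 22Rv1, with adjusted p of 0.596 and 0.654 (edgeR). MED6, MED17 and MED18 were not tested. MED17 had 0 to 5 counts per library and 0 counts in both PC3 libraries, which allows up to 3.27 and 5.26 CPM there.

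**Figure D4:**
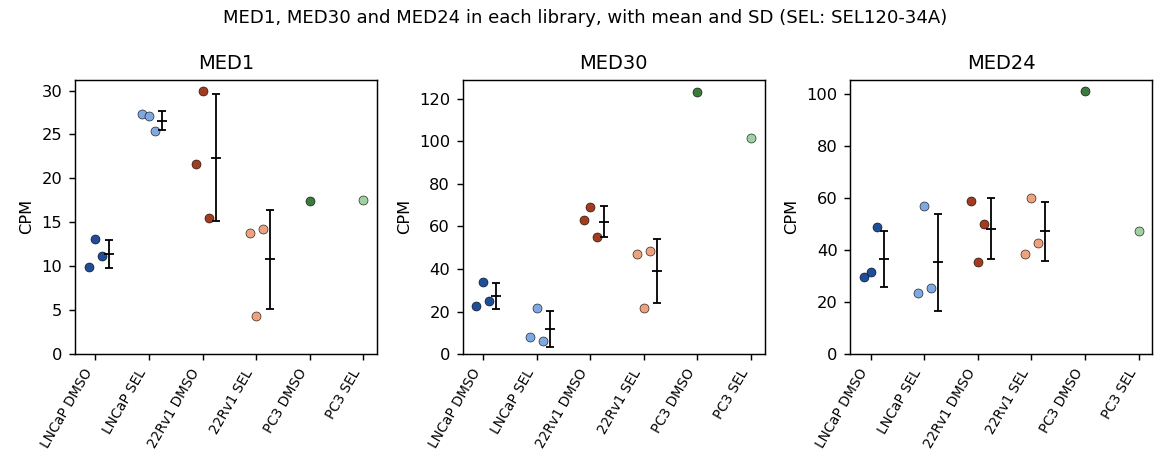
CPM of MED1, MED30 and MED24 in each of the 14 libraries (points), with mean and SD beside the groups of 3. For MED1 the treated libraries lie above the controls in LNCaP and below them in 22Rv1, for MED30 they lie below in both lines, and MED24 is at 101 CPM in PC3 DMSO against 47.3 CPM in PC3 SEL120-34A.

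The composition of the complex was next compared between the lines, LNCaP minus 22Rv1, separately in the DMSO libraries and in the SEL120-34A libraries. The arms share no library. With DMSO 8 of 22 members passed the threshold, beside 49% of all genes tested (24% higher and 25% lower), and with SEL120-34A 6 of 22 did, beside 40.8% (19.7% higher and 21% lower). The shares of the members, 36.4% and 27.3%, were below these. With DMSO 5 were higher in LNCaP (CDK19, MED16, MED9, MED21 and MED28) and 3 were lower (MED13L, MED14 and MED30). With library totals as the only scaling there were 3 higher and 5 lower, and the median of all genes was then at -0.24 on the log2 scale in place of -0.03. With SEL120-34A 2 were higher (CDK19 and MED16) and 4 were lower (MED13L, MED14, MED30 and MED20). CDK19, MED13L, MED14, MED16 and MED30 passed in both arms with the same sign, which is 5 of the 8 and 5 of the 6 calls. Both arms compare the same lines in the same fit, and how often other genes passed in both was not computed. This overlap therefore does not set the members apart from other genes.

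**Figure D5:**
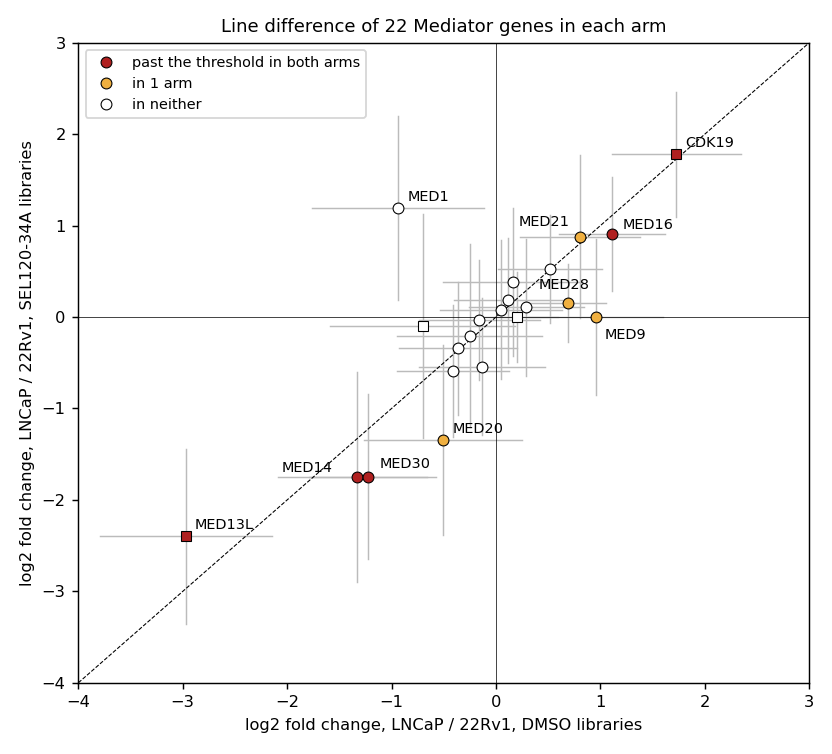
Log2 fold change of LNCaP over 22Rv1 in the DMSO libraries (x axis) against that in the SEL120-34A libraries (y axis) for the 22 tested Mediator genes, with 95% intervals, squares for the kinase module, circles for the core and a dashed line of equality. CDK19 at 1.73 and 1.78 and MED13L at -2.97 and -2.40 lie at the ends, and MED1 is the gene with the largest distance from the line of equality.

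MED16, a tail subunit, was at 56.3, 52.4 and 65.7 CPM in LNCaP DMSO and at 29.4, 28.1 and 25.05 CPM in 22Rv1 DMSO. The lines did not overlap, and the difference was 1.11 ± 0.25 on the log2 scale (adjusted p = 3.39e-04, edgeR). With DMSO, 6 of the 22 tested members were higher in LNCaP without overlap and 4 were lower. The share of all genes without overlap between the lines is not given here, so these counts do not set the members apart from other genes. With SEL120-34A the MED16 difference was 0.90 ± 0.31 (adjusted p = 0.0171, edgeR). That call was lost under 6 of 21 alternatives that tested it. Across all libraries MED16 had 321 counts, and CFD, which lies on the opposite strand at its 3′ end, had 129. Whether the counting used strand was not given in the sources used here.

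MED14 was lower in LNCaP, at 14.1, 13.1 and 16.8 CPM against 37.3, 54.3 and 26.2 CPM in 22Rv1 DMSO. The difference was -1.33 ± 0.38 with DMSO (adjusted p = 0.00329, edgeR) and -1.75 ± 0.57 with SEL120-34A (adjusted p = 0.0123, edgeR). The second value rests on 4, 4 and 1 counts in LNCaP, and without LNCaP SEL120-34A replicate 3 it was -1.10 (adjusted p = 0.142, edgeR), or -1.40 (adjusted p = 0.0788, edgeR) without 22Rv1 SEL120-34A replicate 2. MED30 was lower in LNCaP as well, at -1.22 ± 0.28 on the log2 scale with DMSO (adjusted p = 3.84e-04, edgeR) and -1.74 ± 0.45 with SEL120-34A (adjusted p = 0.00164, edgeR). It was called under all alternatives that tested it, 21 and 20 in the respective arms, although the second value moved to -2.52 without LNCaP SEL120-34A replicate 2 (adjusted p = 3.35e-04, edgeR).

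MED28, MED9 and MED21 passed with DMSO only, and MED20 with SEL120-34A only. MED28 differed by 0.69 ± 0.18 with DMSO (adjusted p = 0.00194, edgeR) and by 0.15 ± 0.21 with SEL120-34A. MED9 differed by 0.95 ± 0.32 (adjusted p = 0.0128, edgeR) and -0.0043 ± 0.42, and MED21 by 0.81 ± 0.29 (adjusted p = 0.0180, edgeR) and 0.88 ± 0.44 (adjusted p = 0.1097, edgeR). MED20 differed by -0.51 ± 0.37 (adjusted p = 0.269, edgeR) and -1.35 ± 0.51 (adjusted p = 0.0331, edgeR), with 6, 2 and 4 counts in LNCaP SEL120-34A. None of these 4 genes is shown to differ between the arms, since the interaction had adjusted p of 0.473 for MED28, 0.509 for MED9, 0.979 for MED21 and 0.664 for MED20 (edgeR). The calls of MED9 and MED21 were each lost under 6 alternatives and that of MED20 under 7. Among them, MED9 had adjusted p of 0.107 without LNCaP DMSO replicate 1 and 0.0722 without 22Rv1 DMSO replicate 3, and MED21 had 0.0761 without LNCaP DMSO replicate 3 (edgeR). MED20 had 0.150 and 0.149 without LNCaP SEL120-34A replicate 2 or 3, and 0.174 and 0.0657 without 22Rv1 SEL120-34A replicate 2 or 3 (edgeR). Without LNCaP SEL120-34A replicate 1 its difference was -1.97 (adjusted p = 0.00858, edgeR). MED21 passed with SEL120-34A as well, at 1.47 (adjusted p = 0.0201, edgeR), when 22Rv1 SEL120-34A replicate 2 was left out.

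The remaining 13 tested genes passed in neither arm. MED1 was near the threshold with opposite signs, at -0.94 ± 0.41 with DMSO (adjusted p = 0.0536, edgeR) and 1.19 ± 0.50 with SEL120-34A (adjusted p = 0.0520, edgeR). It passed under 3 of 19 alternatives with DMSO, among them the fit without 22Rv1 DMSO replicate 3 (-1.21, adjusted p = 0.0297, edgeR), and under 1 of 18 with SEL120-34A. MED29 differed by 0.52 ± 0.25 with DMSO (adjusted p = 0.0772, edgeR) and passed under 2 of 21 alternatives, among them the fit without 22Rv1 DMSO replicate 2 (0.68, adjusted p = 0.0341, edgeR). MED8, MED11, MED10, MED19, MED15, MED24 and MED25 had estimates from -0.36 to 0.29 with DMSO. For MED8, at 36.5 ± 6.00 CPM in LNCaP and 35.0 ± 2.83 CPM in 22Rv1, the interval was -0.54 to 0.63.

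PC3 was described without a test. In the DMSO library, 8 of the 22 tested members lay above all 6 LNCaP and 22Rv1 DMSO libraries (MED10, MED15, MED19, MED20, MED21, MED24, MED25 and MED30) and 4 below them (CDK19, MED9, MED11 and MED28), beside 21.2% and 28.3% of all genes. The largest of these levels were 123 CPM for MED30, against 22.5 to 69.3 CPM in the other lines, and 101 CPM for MED24, against 29.6 to 58.9 CPM. MED6, below the filter elsewhere, had 27 counts (29.4 CPM) in PC3 DMSO against 4.23 to 11.2 CPM in the 6 other DMSO libraries. The PC3 DMSO library was the deepest of the series.

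Between the PC3 arms, 25 members had at least 20 counts together, and 2 of them changed by 2-fold or more, beside 6.42% of 8205 genes. MED24, a tail subunit, had 93 counts with DMSO and 27 with SEL120-34A, a log2 ratio of -1.14 with a 95% counting interval from -1.81 to -0.51. MED14 had 13 and 18 counts, a log2 ratio of 1.11 with an interval from 0.0048 to 2.27. In the replicated lines the log2 fold changes of MED24 were -0.04 ± 0.33 (LNCaP) and -0.07 ± 0.31 (22Rv1), and those of MED14 were below 0. The median log2 ratio was -0.02 over the 25 members, -0.02 over the 5 kinase genes among them and -0.03 over all 8205 genes. The PC3 values have no replicate check.

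The partners of Mediator at the promoter, 12 RNA polymerase II subunits and 27 general transcription factor genes, were examined for comparison. With SEL120-34A, 0 of 10 tested polymerase genes and 0 of 20 tested factor genes passed in LNCaP, beside 2.77% of all genes. In 22Rv1, beside 5.7% of all genes, 1 polymerase gene passed, POLR2K, a small subunit shared by the nuclear polymerases, with a rise of 1.03 ± 0.20 on the log2 scale (adjusted p = 5.55e-04, edgeR), and 0 factor genes did. At the level of these lists the median log2 fold changes were 0.08 and 0.24 for the polymerase and 0.03 and 0.04 for the factors, in LNCaP and 22Rv1.

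Between the lines with DMSO, 2 of the 10 tested polymerase genes were higher in LNCaP and 4 lower, and 6 of the 20 tested factor genes were higher and 3 lower, beside 24% higher and 25% lower of all genes. POLR2L (0.71) and POLR2I (0.48) were higher and POLR2C (-0.84), POLR2J (-0.79) and POLR2G (-0.63) lower on the log2 scale. Among the factors, TAF9 (1.36), a TFIID subunit, and ERCC3 (1.23), a TFIIH helicase, were higher, and TAF6 (-0.91), GTF2F2 (-0.73) and ERCC2 (-1.03) lower. GTF2H2 had the largest value, 4.24 (adjusted p = 2.97e-18, edgeR), but it has near-identical copies in the genome and its assignment is uncertain. With SEL120-34A, beside 19.7% higher and 21% lower of all genes, 0 polymerase genes were higher and 5 lower, led by POLR2G (-1.18), POLR2K (-1.30) and POLR2C (-1.05), and 4 factor genes were higher and 0 lower, led by GTF2H2 (5.14), TAF9 (1.22) and ERCC3 (1.15).

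Some rows could hold tags of other genes. MED31 and TXNDC17, on opposite strands with adjoining 3′ ends, had 78 and 1196 counts over the 14 libraries, and MED11 and CXCL16 had 218 and 379. If strand was not used, their tags cannot be told apart. Annotated pseudogenes of CDK8, MED6, MED13, MED14, MED15 and MED28 held 0 to 2 counts each.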

How the data were processed

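The deposited data were RNA counts per gene of 14 BRB-seq libraries. As the study's methods and the labels state, the authors aligned reads to GRCh38.p13 with GENCODE release 43 and counted them with STARsolo, and they deposited raw counts for 62703 genes together with log2 CPM values for 9638 genes. Whether molecular identifiers were collapsed and whether strand was used is not given in the sources used here, so intervals and floors cover counting error only. The deposited log2 CPM were regained from the deposited counts to within 5e-14 with edgeR's filter, TMM and a prior of 2 counts, and levels are given as CPM on that scale. Groups and replicate numbers were read from the sample titles. The study's methods speak of biological replicates for its experiments in general, and the labels do not say whether these libraries came from separate cultures, so p-values measure the spread between these libraries, which may be technical.

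The 12 LNCaP and 22Rv1 libraries were fitted in 1 edgeR 4.0.16 model (R 4.3.3) with 4 group means, TMM normalization and the low-count filter, which kept 7086 genes. The quasi-likelihood F-test rested on 8 residual degrees of freedom and a common biological variation of 11.1%. SE were taken as the log2 fold change over the square root of F, and p-values were adjusted with Benjamini-Hochberg over all tested genes (threshold 0.05). PC3 was described by log2 ratios from library totals with exact binomial intervals. A PC3 gene was counted as past the fold with at least 20 counts together and a log2 ratio of at least 1 in either direction.

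All 33 members are named, and of the initiation lists up to 3 genes per direction and comparison with the smallest adjusted p. POLR2K and GTF2H2 are named under that rule as well, and KLK3 as the check of the labels. The members and lists were chosen with earlier results of these data known. Alternatives were library totals, DESeq2 size factors, no filter on low counts, a minimum of 10 counts per library, fits of each line or arm alone, thinning to 246063 counts, DESeq2 1.42.0, limma 3.58.1 on the deposited log2 values, a threshold of 0.01, the replicate number as a block and leaving out each library. Leaving out each library was also applied to the shares, an alternative chosen after seeing the data. Coordinates are from GENCODE release 44, and promoter sequences are RefSeq's for 25 of the 33 genes. Lists of marker genes were luminal prostate (KLK3, KLK2, TMPRSS2, HOXB13), epithelial, stromal, leukocyte and endothelial genes and VIM. All 4 luminal genes were detected in every group, stromal genes summed to at most 18.3 CPM outside PC3 and to 93.6 CPM in PC3 DMSO, and VIM was at 1262 CPM in PC3 DMSO against at most 51.5 CPM in the other lines.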

Additional observations from a re-analysis of the deposited data

Results flagged for a closer look

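MED1 was singled out because its treated libraries lay above all controls in LNCaP and below all controls in 22Rv1. Such opposite separation was seen in 1.31% of the 7086 genes tested. The difference between the inhibitor effects was 2.13 on the log2 scale, and its test as an interaction did not pass (adjusted p = 0.135, edgeR). The LNCaP values rest on 5 to 8 counts per control library and 7 to 12 per treated library, and the 22Rv1 values on 11 to 16 and 1 to 5. The SEL120-34A libraries of 22Rv1 were also the shallower ones of that line, and with all libraries thinned to the smallest total MED1 fell under the filter and was not tested.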

How the results depend on the processing

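No Mediator gene passed the threshold for the inhibitor in LNCaP, in 22Rv1 or for the difference between the lines under any alternative, with 0 calls also in every fit that left out a library. The stricter threshold of 0.01 could not have added a call. For LNCaP minus 22Rv1 with DMSO the count was 8, and 7 to 9 with a library left out. It was 5 with limma on the deposited log2 values and 1 when every library had to hold at least 10 counts, a filter that left 2 members to test. With SEL120-34A the count was 6, and 4 to 6 with a library left out. It was 3 with the arm fitted alone, 3 at a threshold of 0.01 and 0 with at least 10 counts in every library. Among the 14 calls of single genes none changed sign, and of their 288 values under alternatives 259 stayed past the threshold and 29 did not. These values include fits that left out a library of the other arm, which enters a call only through the filter, the scaling and the shared spread. Such fits could change a call little. CDK19, MED13L and MED30 passed in both arms under every alternative that tested them, as did MED16 and MED28 with DMSO, and the call of MED14 with DMSO was lost with limma alone (adjusted p = 0.0699). Calls were also gained by genes that the reported fit did not call, namely MED1 under 3 of 19 alternatives with DMSO and 1 of 18 with SEL120-34A, MED29 under 2 of 21, MED27 under 1 of 21 and MED13 under 1 of 18 with DMSO, and MED21 under 1 of 21 with SEL120-34A. With library totals, the summed core CPM were 724 in LNCaP DMSO, 639 in LNCaP SEL120-34A and 790 in 22Rv1 DMSO, and the summed kinase CPM were 252 in 22Rv1 DMSO. Without 1 library at a time, the kinase sum was 222 to 249 (LNCaP DMSO), 242 to 281 (LNCaP SEL120-34A), 228 to 242 (22Rv1 DMSO) and 212 to 234 CPM (22Rv1 SEL120-34A), and the core sum 754 to 782, 705 to 720, 718 to 756 and 692 to 736 CPM in the same order. The cause of these shifts was not tested, except that the stricter filter left fewer genes.

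The replicate numbers were not taken as pairs, since 2 of 18 correlations between same-numbered libraries were over 0.1 (range -0.10 to 0.12). With the replicate block the counts of called members were 0 in LNCaP, 0 in 22Rv1, 0 for the difference, 8 with DMSO and 6 with SEL120-34A, so the block moved no count.

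With library totals as the only scaling, the median log2 fold change of all genes was -0.08 for the inhibitor in LNCaP, -0.14 in 22Rv1, -0.24 between lines with DMSO and -0.17 with SEL120-34A. Depth was 1 limit, since 11 of 33 members were too low to test. MED12L, MED17 and MED18 had few counts everywhere. CDK8 and MED12 held at most 10 and 16 counts in a LNCaP or 22Rv1 library, and 19 and 18 counts in PC3 DMSO.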
